A study of Mus musculus with 4 samples.

Results

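The 9 genes described here encode transcription factors of the endoderm lineage: the GATA factors Gata4 and Gata6, the SOX factors Sox17 and Sox7, the forkhead factors Foxa1, Foxa2 and Foxq1, the nuclear receptor Hnf4a and the homeobox factor Hhex. They were picked by symbol from the 37224 Ensembl genes counted in each library, and all 9 had enough reads to be tested among 20895 genes. The libraries were made from RNA of mouse embryonic stem (ES) cells, 2 labelled wild type (normal) and 2 labelled Smg6 deficient. Smg6 is an endonuclease that cuts mRNAs targeted by nonsense-mediated decay. The labels give no strain, line, passage, culture medium or allele, and do not say whether the libraries of a genotype came from separate cultures or clones, so p-values reflect the spread between the libraries at hand. That spread may be technical, and an effect of Smg6 cannot be told apart from a difference between lines.

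As background, primitive endoderm is the extraembryonic layer that forms beside the epiblast in the blastocyst and gives rise to visceral and parietal endoderm. Gata6 is its early determinant and is opposed by Nanog, while FGF signalling through ERK favours it; Gata4, Sox17 and Sox7 follow. Foxa2, Hnf4a and Hhex act later in visceral endoderm, and with Foxa1 and Sox17 they also act in the definitive endoderm that forms gut, liver and pancreas. ES cell cultures are known to hold some cells of the primitive endoderm type.

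Counts summed to between 130888768 and 155391181 per library. Levels below are CPM (reads divided by the library size after TMM scaling, times 1e6) where genes are followed across libraries, and the deposited RPKM (per kilobase of gene) where genes are compared with each other. Differences are log2 fold changes of Smg6-deficient over wild type with standard error (SE), and adjusted p-values are those of edgeR (quasi-likelihood test, adjusted by Benjamini-Hochberg over all tested genes). A gene was called at an adjusted p below 0.05. Smg6 itself had 13396 and 14071 reads in wild type and 13366 and 11642 in Smg6-deficient cells (log2 fold change -0.21, edgeR adjusted p = 0.089); a count over the whole gene does not check a deletion of some exons. The 7 markers that define ES cells were detected in every library, with Pou5f1 at 936.4 and 845.5 CPM in wild type and 631.9 and 632.9 CPM in Smg6-deficient libraries.

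Of the 9 endoderm factors, 7 rose and 1 fell in Smg6-deficient cells. Of all tested genes, 20.5% were called higher and 19.2% lower, together 39.7%. The median log2 fold change of the 9 factors was 3.62, beside 0.0080 over all tested genes. The libraries of the genotypes did not overlap for 8 of the 9, as for 73.2% of all tested genes. The factors fell into 3 kinds: Sox17, Gata6, Gata4, Foxq1, Foxa2 and Sox7 rose at least 4-fold, Hhex rose by a smaller factor (fold change 1.505), and Foxa1 and Hnf4a were not raised. These libraries are of whole cultures, so more cells of an endoderm type and more RNA per cell cannot be told apart.

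**Figure D1:**
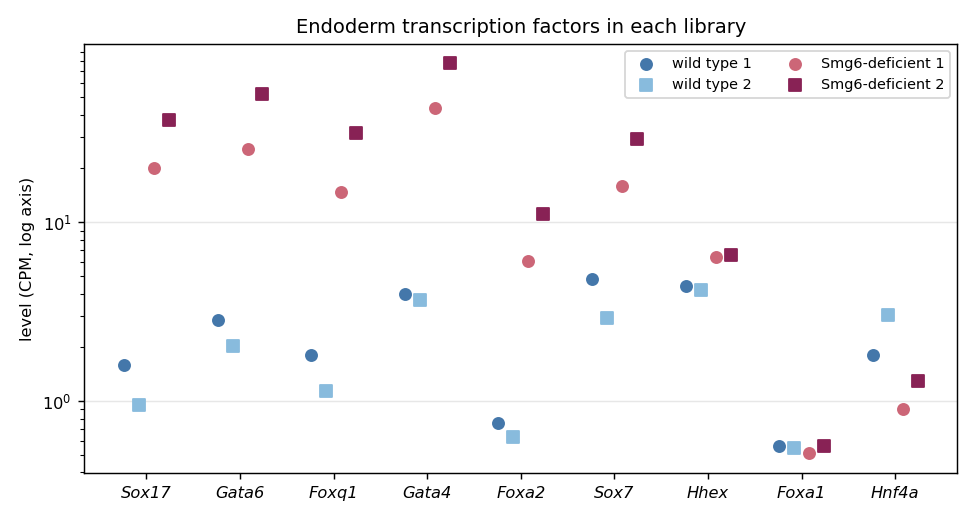
Level of each of the 9 genes in each library (CPM, log axis), ordered by fold change; blue points are wild-type and red points Smg6-deficient libraries, with circles for replicate 1 and squares for replicate 2. For Sox17, Gata6, Foxq1, Gata4, Foxa2 and Sox7 both Smg6-deficient libraries lie far above both wild-type libraries. For these genes Smg6-deficient replicate 2 lies above Smg6-deficient replicate 1. Foxa1 stays between 0.511 and 0.564 CPM in all 4 libraries.

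The GATA pair were the most abundant endoderm factors of the Smg6-deficient cells. Gata4 (ENSMUSG00000021944; GRCm38 chromosome 14, 63198922 to 63271692, minus strand), a zinc finger activator of endoderm and heart genes, stood at 4.0 and 3.70 CPM in wild type (replicate 1, then 2, here and throughout) and at 43.3 and 77.2 CPM in Smg6-deficient cells. Every Smg6-deficient value was thus more than 10 times every wild-type value. The means were 3.85 ± 0.213 and 60.3 ± 24.0 CPM (SD, n = 2), a log2 fold change of 3.97 (SE 0.28, edgeR adjusted p = 0.00028). Gata6 (ENSMUSG00000005836; chromosome 18, 11052064 to 11085635, plus strand) stood at 2.86 and 2.05 CPM in wild type and at 25.7 and 52.0 CPM in Smg6-deficient cells. It rose by a log2 fold change of 3.98 (SE 0.36, edgeR adjusted p = 0.00054), a size that did not differ from that of Gata4 beyond their errors. The RPKM of Gata6 was 0.879 and 0.671 times that of Gata4 in wild type and 0.723 and 0.823 times in Smg6-deficient cells, so the ranges of this ratio overlapped between genotypes. Other GATA genes moved the other way: Gata2, a blood and trophoblast factor, fell by 1.13 on the log2 scale, Gata3 fell by 1.17 and Gata1 fell by 1.16. Gata5 was near 0, between 0.0357 and 0.0822 CPM, and had too few reads to test.

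Both SOX factors rose, and their order by level was exchanged. Sox17 (ENSMUSG00000025902; chromosome 1, 4490931 to 4497354, minus strand), a high mobility group factor needed for endoderm, stood at 1.60 and 0.949 CPM in wild type and at 20.2 and 37.3 CPM in Smg6-deficient cells. Its log2 fold change of 4.49 (SE 0.37, 95% interval 3.60 to 5.38, edgeR adjusted p = 0.00040) was the highest of the 9 and the 13th highest of all tested genes, though its interval overlapped those of Gata6, Gata4, Foxq1 and Foxa2. Sox7 (ENSMUSG00000063060; chromosome 14, 63943673 to 63950732, plus strand), of the same SoxF subfamily and known in primitive endoderm and vessels, stood at 4.80 and 2.92 CPM in wild type and at 15.9 and 29.3 CPM in Smg6-deficient cells. It rose by a log2 fold change of 2.55 (SE 0.34, 95% interval 1.74 to 3.36, edgeR adjusted p = 0.0020), and its interval did not reach that of Sox17. Per length, Sox7 stood at 2.87 and 2.96 times the RPKM of Sox17 in wild type and at 0.755 and 0.751 times in Smg6-deficient cells. This ratio was nearly the same within each genotype, although the level of both genes differed between the replicates. Sox18, the remaining SoxF gene, stood between 0.254 and 0.644 CPM and was not called (log2 fold change 0.65, edgeR adjusted p = 0.20). Sox7 lies 672.0 kb from Gata4 on chromosome 14. On the opposite strand, Gm37587 shares 804 exonic bases with Sox17 and 1010001N08Rik shares 93 with Gata6; neither was analysed here, and their reads cannot be told apart from those of the factors.

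The forkhead factors were divided. Foxa2 (ENSMUSG00000037025; chromosome 2, 148042877 to 148046969, minus strand), a pioneer factor of endoderm, node and floor plate, stood at 0.757 and 0.635 CPM in wild type and at 6.04 and 11.1 CPM in Smg6-deficient cells, which is a log2 fold change of 3.62 (SE 0.32, edgeR adjusted p = 0.00051). Foxa1 (ENSMUSG00000035451; chromosome 12, 57540628 to 57546916, minus strand), its closest relative and partly redundant with it, stood at 0.564 and 0.546 CPM in wild type and at 0.511 and 0.563 CPM in Smg6-deficient cells. The groups overlapped, and the log2 fold change of -0.048 had a 95% interval of -0.62 to 0.53 (edgeR adjusted p = 0.89). This interval lies wholly below that of Foxa2, which runs from 2.85 to 4.39. Per length, Foxa2 stood at 1.75 and 1.57 times Foxa1 in wild type and at 15.6 and 27.1 times in Smg6-deficient cells. Foxa3, the remaining FoxA gene and a liver factor, rose by a log2 fold change of 1.49 (SE 0.20, edgeR adjusted p = 0.0020), from 0.650 and 0.628 CPM to 1.72 and 1.87 CPM.

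Foxq1 (ENSMUSG00000038415; chromosome 13, 31556134 to 31560976, plus strand), a forkhead factor of epithelia and hair, stood at 1.82 and 1.14 CPM in wild type and at 14.8 and 31.7 CPM in Smg6-deficient cells, which is a log2 fold change of 3.97 (SE 0.41, edgeR adjusted p = 0.00080). All of its sequence is 1 exonic block, of 4843 bases, and 3200 of them are also exonic in A530084C06Rik on the opposite strand. A530084C06Rik had 104, 70, 952 and 1864 reads in the same order of libraries and a log2 fold change of 3.98. The library kit did not mark strand, so the reads of this pair cannot be told apart. The nearest tested gene after Foxq1, 64840 bases away, is the forkhead gene Foxf2, which rose by a log2 fold change of 2.01 (SE 0.29, edgeR adjusted p = 0.0026).

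Hnf4a and Hhex did not share the large rise. Hnf4a (ENSMUSG00000017950; chromosome 2, 163506808 to 163572910, plus strand), a nuclear receptor of visceral endoderm and liver that drives apolipoprotein genes, stood at 1.81 and 3.03 CPM in wild type and at 0.911 and 1.30 CPM in Smg6-deficient cells. All Smg6-deficient values lay below all wild-type values, and it fell by 1.13 on the log2 scale (SE 0.31, edgeR adjusted p = 0.026). The call rested on Smg6-deficient replicate 1: without it the log2 fold change was -0.88 (edgeR adjusted p = 0.078). It was also lost by limma-trend on log2(RPKM + 1) (log2 fold change -0.26, limma adjusted p = 0.061) and on log2(RPKM + 0.1) (-0.84, limma adjusted p = 0.059). Hhex (ENSMUSG00000024986; chromosome 19, 37434810 to 37440731, plus strand), a homeobox repressor of anterior visceral endoderm, liver and thyroid, stood at 4.41 and 4.20 CPM in wild type and at 6.37 and 6.59 CPM in Smg6-deficient cells. Its rise was a log2 fold change of 0.59 (SE 0.13, 95% interval 0.28 to 0.90, edgeR adjusted p = 0.013). Its values did not overlap between genotypes, but the call ended without Smg6-deficient replicate 1 (log2 fold change 0.63, edgeR adjusted p = 0.066), without replicate 2 (0.58, edgeR adjusted p = 0.092) and by limma-trend on log2(RPKM + 0.1) (0.51, limma adjusted p = 0.059).

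**Figure D2:**
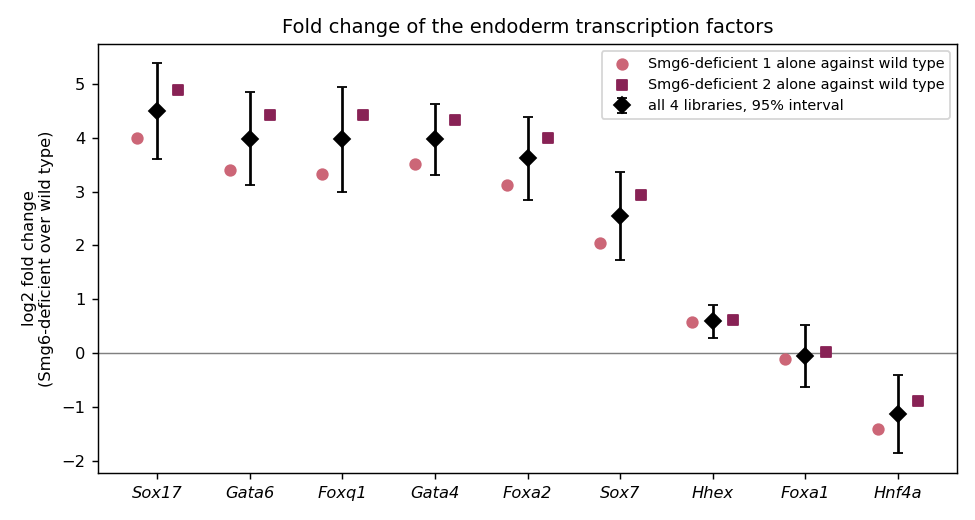
Log2 fold change of each gene (Smg6-deficient over wild type); black diamonds with 95% intervals are from all 4 libraries, and red points set each Smg6-deficient library alone against both wild-type libraries. Each of the 6 strongly raised genes lies above 2 with either library alone, and Foxa1 lies at 0 within its interval.

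Promoter windows of 300 bases ran from 250 before to 50 after a RefSeq start (GRCm38.p6). They were analysed for 4 of the 9 genes, Foxa2, Foxa1, Hnf4a and Hhex, with 7 windows in all. Any window of Gata6 was left out, so its absence here is not a result. Sequence is given for 1 window each of a factor that rose, of its relative that was not called and of the factor that fell, chosen because they hold the motif matches found in these windows. The motifs searched, on both strands, were GATAA (GATA factors), ACAAT (SOX factors), TGTTTAC (FOX factors) and CAAAGTCCA (HNF4); matches are in capitals. They are strings, not shown binding sites.

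Foxa2, most downstream start, chr2:148045415-148045714, minus strand: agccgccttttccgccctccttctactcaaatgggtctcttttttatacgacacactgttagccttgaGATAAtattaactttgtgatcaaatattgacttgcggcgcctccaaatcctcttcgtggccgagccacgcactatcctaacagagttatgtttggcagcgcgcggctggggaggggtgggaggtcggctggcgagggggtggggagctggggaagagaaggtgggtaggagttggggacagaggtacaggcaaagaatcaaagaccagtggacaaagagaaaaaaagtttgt

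Foxa1, chr12:57546062-57546361, minus strand: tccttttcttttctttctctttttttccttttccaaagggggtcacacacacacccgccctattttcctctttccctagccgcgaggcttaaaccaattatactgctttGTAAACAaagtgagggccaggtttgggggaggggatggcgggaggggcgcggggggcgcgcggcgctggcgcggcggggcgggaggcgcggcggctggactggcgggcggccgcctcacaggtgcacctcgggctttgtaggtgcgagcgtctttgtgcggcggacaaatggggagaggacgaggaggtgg

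Hnf4a, first start, chr2:163506607-163506906, plus strand: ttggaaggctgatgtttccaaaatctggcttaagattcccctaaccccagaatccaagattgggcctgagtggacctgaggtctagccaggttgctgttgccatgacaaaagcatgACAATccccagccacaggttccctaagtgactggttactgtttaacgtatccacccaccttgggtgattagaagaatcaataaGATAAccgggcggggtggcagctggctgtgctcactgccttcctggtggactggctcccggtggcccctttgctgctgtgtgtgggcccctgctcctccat

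The Foxa2 window holds 1 GATAA match, that of Foxa1 holds 1 match to the FOX motif, and that of Hnf4a holds 1 GATAA and 1 ACAAT match. Of 32851 promoter windows of the same length, 25.4% hold GATAA, 31.0% ACAAT, 3.65% TGTTTAC and 0.475% CAAAGTCCA. The other 2 windows of Foxa2, the second of Hnf4a and that of Hhex hold none of the 4 strings. The windows differ in base composition: that of Hhex has 75.7% G and C with 37 CpG pairs, the first of Hnf4a 54.0% with 4, and the median over all windows is 52.7% with 7.

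Per length, the order of the factors differed between genotypes. In wild-type cells the RPKM means were highest for Sox7 (1.015 ± 0.389, SD, n = 2), Hhex (0.965 ± 0.0778) and Gata4 (0.850 ± 0.0849), which did not differ beyond their spread. Gata6 (0.665), Foxq1 (0.460), Hnf4a (0.425), Sox17 (0.350), Foxa2 (0.250) and Foxa1 (0.150) followed, and from Gata6 to Foxa2 each gene overlapped its neighbour in the order in replicate values. In Smg6-deficient cells the order, the same within each library, was Gata4 (12.8 ± 4.65 RPKM), Gata6 (10.06 ± 4.49), Sox17 (7.55 ± 2.93), Foxq1 (6.87 ± 3.31) and Sox7 (5.68 ± 2.18). Across the libraries the replicate values of these genes overlapped between neighbours. Foxa2 (2.995 ± 1.14) lay below these, then Hhex (1.41 ± 0.0141), Hnf4a (0.190) and Foxa1 (0.140). Of the summed RPKM of the 9 genes, Gata4, Gata6 and Sox17 held 15.6%, 13.8% and 7.73% in wild-type replicate 1 and 27.6%, 20.0% and 15.9% in Smg6-deficient replicate 1. Hhex held 17.5% and 20.5% of the sum in wild type and 4.12% and 2.30% in Smg6-deficient cells.

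**Figure D3:**
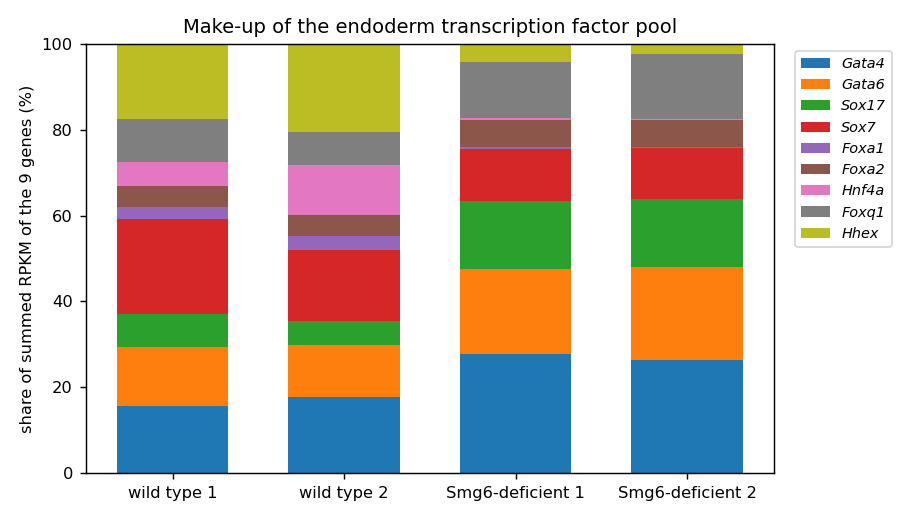
Share of each gene in the summed RPKM of the 9 genes (%), with 1 bar per library and 1 colour per gene. The Smg6-deficient bars resemble each other although their sums are 34.5 and 60.9 RPKM. The shares of Sox7, Hhex, Hnf4a and Foxa1 are smaller than in the wild-type bars.

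In level, the Smg6-deficient libraries were unlike each other. Replicate 2 over replicate 1 was 1.78 for Gata4, 1.83 for Foxa2, 1.84 for Sox7, 1.85 for Sox17, 2.03 for Gata6 and 2.14 for Foxq1, with 95% intervals for counting error (exact binomial) from 1.69 for Foxa2 to 2.26 for Foxq1 at their widest. Over all tested genes the 5th and 95th percentiles of this ratio were 0.706 and 1.43. Hhex (1.04, 95% counting interval 0.945 to 1.14) and Foxa1 (1.10, 0.792 to 1.53) showed no difference between these libraries beyond counting error, while Hnf4a (1.43, 1.14 to 1.80) was higher in replicate 2. With 1 library on each side these ratios have no replicate check.

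The 6 strongly raised factors were higher with either Smg6-deficient library. Set alone against wild type, replicate 1 gave fold changes of 15.9 for Sox17, 11.3 for Gata4, 10.5 for Gata6, 10.05 for Foxq1, 8.74 for Foxa2 and 4.16 for Sox7. Replicate 2 alone gave 29.4, 20.2, 21.3, 21.5, 16 and 7.63 in that order. All 12 of these fits passed, with edgeR adjusted p of at most 2.9e-06, assuming that the lone library varies like the wild-type pair. The wild-type libraries differed the other way: replicate 2 over replicate 1 was 0.593 for Sox17, 0.609 for Sox7, 0.628 for Foxq1 and 0.715 for Gata6, all with counting intervals below 1, and 1.67 for Hnf4a. The 5th and 95th percentiles over all tested genes were 0.668 and 1.79 in wild type, so of these only Sox17, Sox7 and Foxq1 lay outside them.

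**Figure D4:**
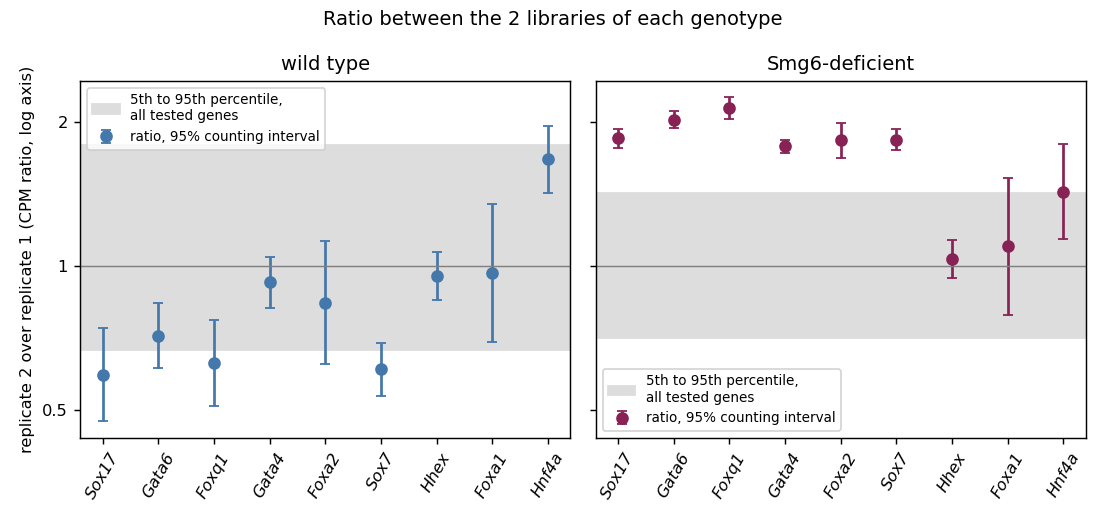
Replicate 2 over replicate 1 of each gene (CPM ratio, log axis) in wild-type (left) and Smg6-deficient libraries (right); bars are 95% intervals for counting error and the grey band spans the 5th to 95th percentile of all tested genes. In the Smg6-deficient panel the 6 strongly raised genes lie between 1.78 and 2.14, above the band, and Hhex and Foxa1 lie near 1.

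Genes that mark primitive endoderm differed in the same direction. Of 7 surface and early markers, 6 rose and 1 fell (median log2 fold change 1.12). As given above, 20.5% of all tested genes were called higher and 19.2% lower, shares to set beside each list count below. Pdgfra, the receptor often used to sort primitive endoderm, had a log2 fold change of 2.26 (edgeR adjusted p = 0.0012) and a replicate 2 over 1 ratio of 1.64 in Smg6-deficient libraries. Dab2, an endocytic adaptor, rose by 2.46 with a ratio of 1.78, and Serpinh1, a collagen chaperone, rose by 1.59 with a ratio of 1.36. Their shifts between replicates thus lay near or below those of the factors.

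Of 12 parietal endoderm products, 9 rose and 0 fell (median 1.06). They included Pth1r, the parathyroid hormone receptor, with a log2 fold change of 3.71 (edgeR adjusted p = 0.00028), the laminin chain gene Lama1 with 3.62, and the collagen gene Col4a1 with 2.04. Their replicate 2 over 1 ratios were 1.56, 1.63 and 1.40. Thbd and Nid1, at 0.11 and 0.10, were not called.

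Products of visceral endoderm moved in both directions. Of 14 tested, 7 rose and 4 fell (median 0.91). The endocytic receptors Cubn and Lrp2 rose by log2 fold changes of 4.95 and 3.02, and Bmp2, a secreted signal of visceral endoderm, by 3.19. In Smg6-deficient libraries the replicate 2 over 1 ratios of Cubn, Lrp2 and Bmp2 were 2.01, 1.19 and 1.50. Among the other raised products, Ihh and Amn had ratios of 1.84 and 1.59 and Apoa2 one of 0.874. Ttr, with 57 and 13 reads in Smg6-deficient libraries, had a ratio of 0.258. Over the whole list, lowered and uncalled genes included, the median log2 of this ratio was 0.11, beside 0.87 for the 9 endoderm factors. Secreted proteins were found among both the raised and the lowered members. Apoa2, an apolipoprotein, rose by 1.38, from 3.24 and 2.81 CPM to 8.42 and 7.35 CPM, and Ttr, the carrier transthyretin, was called higher (edgeR adjusted p = 0.031) at 0.374 and 0.0963 CPM, from 0.0357 and 0 CPM. Afp fell by 1.69, from 0.371 and 0.583 CPM to 0.118 and 0.178 CPM, Apom fell by 1.55 and Rbp4 fell by 0.89 on the log2 scale. Apoe, the most abundant of the list, fell by 0.63 on this scale (edgeR adjusted p = 0.0025). It went from 793.2 and 850.6 CPM to 551.4 and 513.3 CPM. Apoa1, between 0.111 and 0.247 CPM, Apob (log2 fold change 0.44) and Trf (0.11) were not called (edgeR adjusted p = 0.20, 0.28 and 0.66). The names of these secreted proteins were chosen after their values were seen.

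Other transcription factors of liver and gut were mostly higher, with 6 of 8 tested called higher and 0 lower (median 1.20). Foxa3, given above with the forkhead factors, was among them. Regulators and markers of mesendoderm and definitive endoderm moved both ways, with 2 of 11 tested higher and 4 lower (median -0.30). Over all tested genes 20.5% were called higher and 19.2% lower. Eomes, a T-box factor of the primitive streak, fell by 1.42 on the log2 scale, Gsc fell by 1.95 and T rose by 1.20. Several of the called genes had few reads: Gsc had 45 and 26 in wild type and 9 and 10 in Smg6-deficient libraries. Mesp1 and Nepn, also called lower, had between 2 and 15 reads per library, and Mixl1, called higher, between 17 and 57. Leaving out Smg6-deficient replicate 1 ended the call of Gsc (log2 fold change -1.78, edgeR adjusted p = 0.084). Cxcr4, a receptor used to mark definitive endoderm, stood at 1.28 and 1.01 CPM in wild type and at 0.747 and 0.807 CPM in Smg6-deficient libraries (edgeR adjusted p = 0.093), and Cer1 was at 0 in 2 of the libraries.

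Upstream signals and opposing factors were measured too. Of 20 genes of the FGF and Nodal inputs, 6 rose and 3 fell (median -0.0098), beside 20.5% higher and 19.2% lower of all tested genes. The ligand gene Fgf4 fell by 1.30 on the log2 scale, while Dusp6 and Etv4, both known as readouts of ERK activity, rose by log2 fold changes of 1.50 and 1.36. Of 12 pluripotency factors, 9 fell and 1 rose (median -0.66). Nanog, the antagonist of Gata6, fell by 2.04 on the log2 scale, from 725.7 and 554.5 CPM to 156.8 and 155.3 CPM. Unlike the raised factors, Nanog stood at nearly the same level in both Smg6-deficient libraries. Tfcp2l1 fell by 1.13 and Klf2 fell by 1.04. Members of the ES cell marker list also fell, with 5 of 7 lower and 1 higher: Dppa5a fell by 1.14 and Utf1 rose by a log2 fold change of 0.98.

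Several of the 9 genes are also known outside endoderm, so markers of those cell types are given beside them. Their counts stand beside 20.5% of all tested genes called higher and 19.2% called lower. Endothelial and blood markers, which bear on Sox7, Sox17 and Hhex, summed to between 31.9 and 44.8 CPM in wild type and to 47.7 and 47.5 CPM in Smg6-deficient libraries, with 3 of 9 tested higher, 3 lower and Emcn between 0 and 0.0197 CPM. Cdh5 rose by a log2 fold change of 2.51, to 0.964 and 1.63 CPM, and Runx1 by 1.21. The lowered ones were Gata1, Tie1 and Erg, which fell by 1.16, 1.10 and 1.28 on the log2 scale. Tek and Cd34 were not called (edgeR adjusted p = 0.49 and 0.92). Cardiac markers, which bear on Gata4 and Gata6, summed to 11.5 and 12.0 CPM in wild type and to 9.24 and 8.78 CPM in Smg6-deficient libraries, with 1 of 6 higher and 3 lower. Among them Myl7 fell by 1.22, Actn2 fell by 0.52 and Myh6 rose by 0.83; when Smg6-deficient replicate 1 was left out, the calls of Actn2 (edgeR adjusted p = 0.13) and Myh6 (0.092) ended, and that of Actn2 also without replicate 2 (0.18). In the neural and floor plate list, which bears on Foxa2, 1 of 6 was higher and 2 lower. Foxj1 fell by 0.97, Pax6 fell by 0.62 and Sox1 rose by 0.92, a call that leaving out Smg6-deficient replicate 2 ended (edgeR adjusted p = 0.061), and Shh was between 0.0444 and 0.0714 CPM.

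Trophectoderm markers had 4 of 7 members higher and 3 lower, and their sums were 222.4 and 154.0 CPM in wild type and 304.8 and 287.3 CPM in Smg6-deficient libraries. The keratin genes Krt8 and Krt18, which endoderm epithelia also express, rose by log2 fold changes of 1.88 and 1.66. Cdx2 and Hand1 rose by 1.47 and 1.35, while Elf5, Gata3 and Tfap2c fell by 1.86, 1.17 and 0.66 on the log2 scale. Fibroblast markers, as of feeder cells, summed to 995.2 and 727.5 CPM in wild type and to 1201 and 1095 CPM in Smg6-deficient libraries. Here 2 of 10 were higher and 0 lower, beside 20.5% and 19.2% of all tested genes, and none stood at 0. Col1a1 (log2 fold change 0.49, edgeR adjusted p = 0.049) and Pdgfrb (0.56, edgeR adjusted p = 0.044) lost their calls under other scalings, and when Smg6-deficient replicate 1 was left out (0.12 and 0.065). Between the Smg6-deficient replicates the fibroblast list had a median log2 ratio of -0.087 and the trophectoderm list of -0.11, beside 0.87 for the 9 endoderm factors. Between the wild-type replicates the medians were -0.47 for the fibroblast list, -0.52 for the trophectoderm list and -0.25 for the 9 factors. The part of these cell types in the results was not tested.

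**Figure D5:**
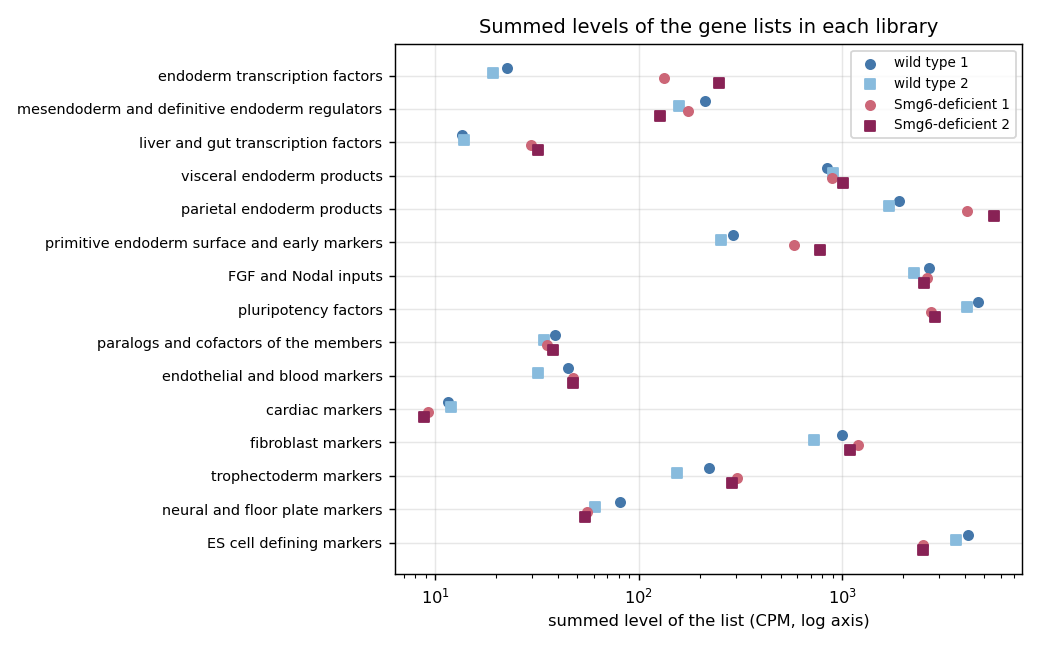
Summed level of each gene list in each library (CPM, log axis); blue points are wild-type and red points Smg6-deficient libraries, with circles for replicate 1 and squares for replicate 2. The sum of the 9 endoderm factors was 22.6 and 19.2 CPM in wild type and 133.7 and 247.1 CPM in Smg6-deficient libraries; the sums of the parietal and primitive endoderm lists were also higher in both Smg6-deficient libraries and highest in replicate 2.

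The genes outside the set whose pattern over the 4 libraries was most like the mean pattern of the 9 were Tns4, Ntn1, Car4, Pdgfra and Dab2. That mean also takes in Foxa1, Hnf4a and Hhex, which did not share the large rise of the other factors. Likeness was the distance between log2 CPM values centred on each gene's mean, over the 12435 genes averaging a log2 CPM of 2 or more, and ran from 0.174 for Tns4 to 0.307 for Dab2. Ntn1, the guidance cue netrin, stood at 11.1 and 8.88 CPM in wild type and at 37.1 and 54.8 CPM in Smg6-deficient libraries. Car4, a carbonic anhydrase, stood at 7.33, 5.43, 24.5 and 35.9 CPM in the same order. A likeness over 4 libraries of 2 genotypes is a description, and Pearson correlation in place of distance named 5 other genes.

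Genes beside the factors moved in both directions. Of the 18 nearest tested genes, 1 on each side of each factor at 2674 to 819433 bases, 5 were higher and 3 lower, together 44.4% against 39.7% of all tested genes. Beside the 6 strongly raised factors, 4 of 12 were higher and 2 lower (50.0%). The closest of all, 9030622O22Rik at 2674 bases from Foxa2, was called higher (edgeR adjusted p = 0.0027) at 0.00714 and 0.0149 CPM in wild type and 0.210 and 0.452 CPM in Smg6-deficient cells. Xkr4, 819433 bases from Sox17, rose by a log2 fold change of 2.12 (SE 0.34, edgeR adjusted p = 0.0037). Neil2, 5066 bases from Gata4, had a log2 fold change of -0.16 (edgeR adjusted p = 0.39), and Mib1, 233360 bases from Gata6, one of -0.13 (edgeR adjusted p = 0.35). R3hdml, 4196 bases from Hnf4a, fell by 1.85 on the log2 scale (SE 0.29, edgeR adjusted p = 0.0037), in the same direction as Hnf4a. Hnf4aos, an antisense RNA gene that overlaps the Hnf4a locus but shares none of its exons, had 5 and 8 reads in wild type and 4 and 4 in Smg6-deficient libraries.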

How the data were processed

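RNA was extracted with TRIzol, prepared with an Illumina TruSeq v2 kit, which does not mark strand, and sequenced as single reads on a HiSeq2000, per the labels' protocols. The submitters' processing notes name TopHat2 2.0.9 and mm10; the sources used here do not give the counter or annotation. The authors deposited whole-number read counts and RPKM values per Ensembl gene. Symbols and positions came from GENCODE M21 (GRCm38); 35449 of 37224 identifiers had a symbol. Promoter sequences came from RefSeq (GRCm38.p6).

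In edgeR 4.0.16 (R 4.3.3), low genes were removed by filterByExpr with a minimum count of 10, libraries were scaled by TMM, and genotype, the sole term, was assessed by the quasi-likelihood F test. SE is the absolute log2 fold change over the square root of F. Alternatives used DESeq2 1.42.0 and limma 3.58.1. The common biological coefficient of variation was 0.118. Counting intervals cover counting error only.

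The 9 genes and the 14 other lists (157 entries in all, some in several lists) were chosen with earlier results of these data known. Named were the 9 genes; from each list up to 3 called genes with the smallest adjusted p, or the 2 most abundant where fewer than 2 were called; and the 5 genes of most similar pattern. Other genes were named after their values were seen. The values of 2 genes that the rule named are not reported here.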

Additional observations from a re-analysis of the deposited data

How the results depend on the processing

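Under 14 alternatives (DESeq2 size factors, upper-quartile factors or library size alone; no filter or 50 counts in 2 libraries; DESeq2, limma-voom, or limma-trend on log2 RPKM with a pseudocount of 1 or 0.1; the replicate block; and leaving out each library), Sox17, Gata6, Gata4, Foxq1, Foxa2 and Sox7 were called higher in all. Their lowest log2 fold changes, from 1.65 for Foxa2 to 2.86 for Gata4, came with log2(RPKM + 1), a scale that by construction understates changes of low genes. Between 6 and 8 of the 9 factors were called under the alternatives, against 8. The only reversed sign was that of Foxa1 without Smg6-deficient replicate 1 (log2 fold change 0.031, edgeR adjusted p = 0.97; -0.11 without replicate 2), which was never called. Over all genes, 5141 to 10477 were called when 1 library was left out, against 8289. The lowest counts were 5141 without Smg6-deficient replicate 1 and 5197 without replicate 2, and the cause was not tested. Of 131 tested genes of the other lists, 84 were called and 64 to 96 under the alternatives. Of the 5 genes nearest in pattern, 0 were also among the 5 by Pearson correlation. Replicate numbers are not stated to pair libraries across genotypes; deviations from the group means correlated at 0.196 over 15307 genes. With the replicate block 9687 genes and 8 of the 9 factors were called. Foxa1, at about 0.5 CPM, could show only large changes: its interval spans -0.62 to 0.53.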

Other observations

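Among genes with a mean of at least 4 CPM, 63 were called higher with a log2 fold change of at least 2. Of these, 50 (79.4%) stood higher in Smg6-deficient replicate 2 than in replicate 1. Their median ratio was 1.25 over the 63, beside 0.994 over all tested genes. The share of all genes that stood higher in replicate 2 was not counted, and the 63 are a set selected by their rise. Of the 63, 13 had a ratio of at least 1.78, the lowest of the 6 strongly raised factors. That bound places these 6 among the 13 by construction, and their wild-type means lay below 4 CPM, so they entered the 63 through the Smg6-deficient libraries. The others were A530084C06Rik, which overlaps Foxq1, and 6 genes picked after their values were seen. A530084C06Rik, with a wild-type mean of 0.633 CPM, entered in the same way as the factors. By their levels and fold changes, Dkk1, Nostrin, Klb and Srgn also had wild-type means below 4 CPM and entered in this way. Cubn had a wild-type mean of 4.80 CPM. Dkk1, a secreted Wnt antagonist, had a ratio of 2.18 and a log2 fold change of 4.07. Cubn, the endocytic receptor cubilin, had a ratio of 2.01. Nostrin, a trafficking adaptor of endothelial nitric oxide synthase, had a ratio of 2.00 and a log2 fold change of 3.93. Srgn, the proteoglycan serglycin, known in parietal endoderm, had a ratio of 1.99 and a log2 fold change of 3.42. Klb, a coreceptor of endocrine FGFs, had a ratio of 1.90 and a log2 fold change of 3.50. Flrt3, a membrane protein of visceral endoderm, had a ratio of 1.89 and a log2 fold change of 2.70.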
